A study of Mus musculus with 133 samples.

Results

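The comparison described here sets partial hepatectomy (PH) against sham surgery at 96 h in hepatocytes of old female (OF) mice, across all genes. Its members were the 3 libraries titled OF_4d (PH) and the 3 titled OF_Sh4d (sham) that carry no X mark, 6 of the 133 libraries of the series, and the 1 sham library marked 3X was left out. All mice were wild-type C57BL/6, and both groups were 60-week-old females killed 4 days (96 h) after surgery. In PH the left and median lobes were removed, and in sham surgery the abdomen was opened and closed. The series profiled hepatocytes of young, old and very old mice of both sexes in normal liver (NL) and after surgery. The submitters' design text lists the female and sham libraries as data used for batch correction. Hepatocytes were enriched by collagenase perfusion and low-speed spins, and RNA was measured by CEL-seq2, a 3′ end method that counts molecules by unique molecular identifiers (UMIs). Each library is labelled as a separate replicate, but nothing in the labels says that each came from its own mouse, so p-values measure the spread between libraries.

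After PH the remaining hepatocytes, quiescent in the adult liver, re-enter the cell cycle, replicate DNA and divide until liver mass is restored, while the remnant goes on making plasma proteins and handling drugs, lipids and iron. DNA replication genes are driven mainly by E2F factors around the G1/S transition. Genes of the later G2/M phase are held down in quiescence by the DREAM complex at promoter elements called CHR and are switched on by B-MYB and FOXM1.

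At 96 h after PH, most mitotic genes were higher in OF hepatocytes and few replication genes were, while hepcidin and 12 of 29 female-biased genes were lower. Of 11044 genes tested, 281 were called higher (2.54%) and 176 lower (1.59%), 457 in all (4.14%). Calls come from edgeR's quasi-likelihood test, at a fold change of 2 or more and a Benjamini-Hochberg adjusted p below 0.1. Leaving out 1 library gave 192 to 258 higher and 96 to 169 lower calls, with 99 lower calls without sham replicate 1 and 96 without PH replicate 3. Every PH library lay above every sham library for 1566 genes (14.2%) and below for 1550 (14.0%), and 255 of the 281 and 165 of the 176 called genes were of this kind. The 12 higher genes named by size were Knl1, Hbb-bt, Ckap2, Kif20a, Prc1, Plk1, Ly6d, Ccnb2, Cdc20, Ccnb1, H19 and Anln, with log2 fold changes from 4.46 to 6.27. The 12 lower genes were Calr-ps, Sult3a1, A1bg, Hamp, Abt1, Sult2a3, Sult3a2, Id1, Hamp2, Gm7973, Serpina12 and Dlgap1, with log2 fold changes from -5.93 to -2.23. Of the higher genes, 9 belong to the mitotic apparatus, and of the lower genes, 5 belong to the female-biased or sulfotransferase families. Several of these counts rest on near-identical copies (Hamp and Hamp2, Sult3a1 and Sult3a2, Sult2a2 and Sult2a3, the globins), among which 3′ reads could be split. Levels are given in CPM, counts scaled to the library's effective size.

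**Figure D1:**
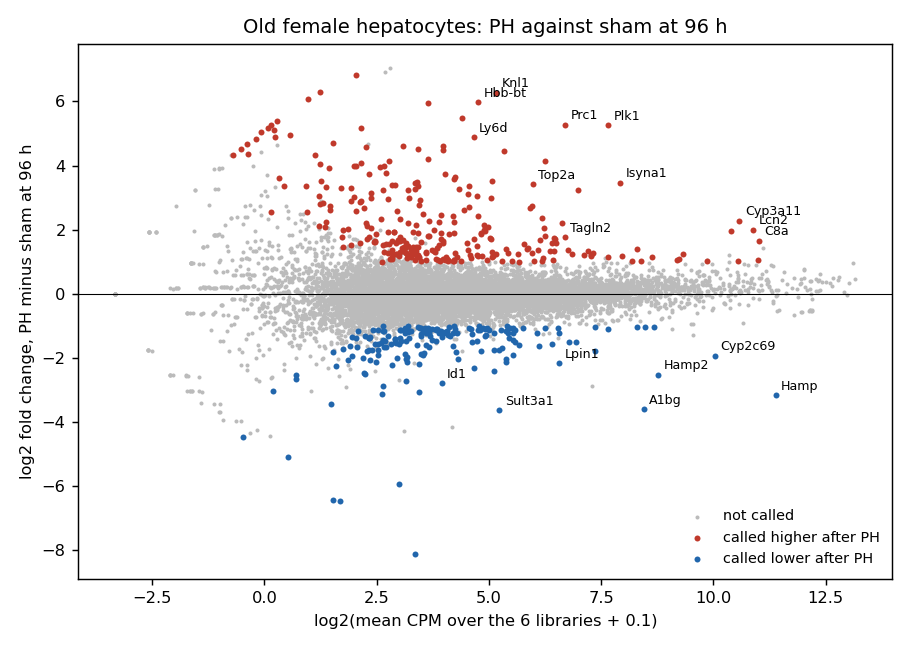
Log2 fold change of PH against sham at 96 h in OF (y axis) by mean level over the 6 libraries (x axis, log2 of CPM + 0.1), 1 point per gene; red, 281 genes called higher; blue, 176 called lower; grey, not called. Mitotic genes such as Plk1 and Prc1 rise from low levels, while Hamp, at the right, falls from one of the higher levels.

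Total counts ranged from 731339 to 2474840 over the 6 libraries, and the lowest was PH replicate 1. The titles also carry a mix number, whose meaning the labels do not give. These numbers differed: PH replicates 1 to 3 came from mixes 14, 15 and 15, and sham replicates 1 to 3 from mixes 13, 15 and 22. With the mix as a covariate, 53 of the 281 and 12 of the 176 genes remained called, and all 457 kept their direction. Within mix 15, both PH libraries lay above the 1 sham library for 280 of the 281 and below it for 174 of the 176, against 4003 and 3988 of all 11044 genes. These libraries are among the 6 that gave the calls, so this agreement was largely set by the selection and is no separate check. The sham library 3X of mix 15, which played no part in the calls and held only 213852 counts, lay below every PH library for 226 of the 281 and above for 129 of the 176, against 46% and 33.5% of all genes tested. Its title carries the same replicate number as sham replicate 3, and the meaning of the X mark is not given. Both may come from the same mouse, so 3X cannot be taken as an independent check. Hepatocyte markers (15 of 15 tested, none called) summed to 39838 to 42023 CPM in sham and 45445 to 56666 CPM after PH. Xist was present in all 6 libraries (135 to 446 CPM), and the Y-linked Ddx3y reached at most 2.35 CPM, in a sham library.

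The mitotic genes moved furthest. Of 48 genes of the G2/M and mitosis list, 34 were called higher and none lower, with a median log2 fold change of 3.29 beside -0.01 over all tested genes, or 2.99 with the 4 genes that had no sham count set at their bound. Levels are given for replicates 1, 2 and 3 in that order. Plk1, the polo-like kinase that drives mitotic entry (chr7:122159439-122169873, GRCm38), was at 0, 17.6 and 9.48 CPM in the sham libraries and at 353, 566 and 260.3 CPM in the PH libraries. All 3 PH libraries lay far above the sham libraries, and the log2 fold change was 5.26 ± 0.70 (SE, adjusted p = 3.47e-05). Prc1, which bundles microtubules of the central spindle, rose from 0, 7.61 and 5.87 CPM to 214, 289.7 and 106 CPM, a log2 fold change of 5.28 ± 0.65 (adjusted p = 2.24e-05). Knl1, a kinetochore scaffold, had 3.92, 0 and 0 CPM in sham and 61.9, 85.4 and 63.8 CPM after PH (log2 fold change 6.27 ± 0.66, adjusted p = 7.01e-06). Its sham level rested on 5 counts in all.

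The kinase core of mitosis moved with them. Cdk1, the mitotic cyclin-dependent kinase, was at 3.92, 7.61 and 4.06 CPM in sham and 53.4, 78.9 and 52.2 CPM after PH (log2 fold change 3.51 ± 0.57, adjusted p = 0.000362). Its partners Ccnb1 and Ccnb2, the B-type cyclins, rose from at most 1.6 and 2 CPM in sham to at least 10.5 and 13.7 CPM after PH, with log2 fold changes of 4.52 ± 0.70 and 4.60 ± 0.79 (adjusted p = 0.000257 and 0.000555). Cdc20, an activator of the anaphase-promoting complex, went from 0.785, 1.2 and 0 CPM to 7.03, 27.5 and 13.7 CPM (log2 fold change 4.60 ± 0.70, adjusted p = 0.000176). In each of these genes the groups did not overlap, and PH replicate 2 was the highest library. Top2a, the topoisomerase that untangles chromosomes, rose from 11, 11.6 and 10.4 CPM to 78.7, 165 and 102 CPM (log2 fold change 3.41 ± 0.45, adjusted p = 3.33e-05). Mki67, the proliferation marker Ki-67, rose from 6.28, 2.8 and 4.06 CPM to 45, 48.1 and 33.7 CPM (log2 fold change 3.35 ± 0.56, adjusted p = 0.000476). Aurka, a centrosome kinase, was at 7.85, 6.41 and 4.52 CPM in sham and 39.4, 46.9 and 25.3 CPM after PH, a log2 fold change of 2.60 ± 0.42 (adjusted p = 0.000326). Kif2c and Ube2c, a microtubule depolymerase and a ubiquitin-conjugating enzyme, had no count in any sham library, and were at least 2.78-fold and 2.26-fold higher after PH against a floor of 3 counts per library. Ckap2, a spindle protein with 2 counts over the sham libraries and 133 after PH, had a ratio of 78.4 with a counting interval from 21.3 to 654 (95%, exact). Of the 34 called genes, 22 were called in all 6 fits that left out 1 library, in which the list gave 22 (without PH replicate 2) to 33 calls, and 10 genes of the list were called with the mix as a covariate.

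Because CHR elements are the known mark of such genes, the promoters were searched. RefSeq promoters (GRCm38.p6, from 250 bases before to 50 after a start site) were matched for 29 of the 34 called mitotic genes (31 promoters) and for 7893 of the tested genes (10148 promoters). The CHR letters TTTGAA or TTCGAA, on either strand, were in 26 of the 31 promoters (83.9%) against 14.5% of all promoters, 29.6% of those of genes called higher and 20.1% of those of genes called lower. CCAAT was in 80.6% against 37.9%, and both were present in 77.4% against 5.9%. Over all 48 tested mitotic genes, called or not, CHR was in 32 of 42 promoters (76.2%). The E2F letters TTTCCCGC or TTTGGCGC were in 1 of the 31 (3.23%) against 2.91% of all promoters, and in 12 of 44 promoters of the tested replication and G1/S genes (27.3%). These are matches of letters and not measured binding sites. The following stretches of 30 bases, shown because they hold the CHR nearest the start site in 6 called genes, run 5′ to 3′ on the gene's strand, with the CHR letters in capitals.
Plk1 (chr7:122159453-122159482, plus strand, GRCm38.p6, CHR from base 31 relative to the start site): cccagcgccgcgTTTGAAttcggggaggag
Cdc20 (chr4:118437344-118437373, minus strand, GRCm38.p6, CHR from base -18 relative to the start site): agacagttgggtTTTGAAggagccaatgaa
Cdk1 (chr10:69352910-69352939, minus strand, GRCm38.p6, CHR from base -15 relative to the start site): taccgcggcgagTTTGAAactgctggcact
Top2a (chr11:99024195-99024224, minus strand, GRCm38.p6, CHR from base -23 relative to the start site): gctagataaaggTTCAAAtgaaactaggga
Ccnb2 (chr9:70421533-70421562, minus strand, GRCm38.p6, CHR from base 5 relative to the start site): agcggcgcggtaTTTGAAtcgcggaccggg
Mki67 (chr7:135716460-135716489, minus strand, GRCm38.p6, CHR from base -98 relative to the start site): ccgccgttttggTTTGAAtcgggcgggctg
In Plk1, Cdc20, Cdk1, Top2a and Ccnb2 the nearest CHR lay between base -23 and base 31, and in Mki67 it lay further upstream. As the nearest match was shown, this closeness is in part set by the choice. Further CHR letters lay at base -71 in Cdk1, -167 in Ccnb2, -116 in Mki67, and -179, -140 and -120 in Top2a.

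Few replication genes were called. Of 43 genes of the replication and G1/S list, 3 were called higher (Ccna2, E2f2 and Mcm6) and none lower. The higher calls were 6.98% of the list, against 2.54% of all tested genes. The median log2 fold change was 0.53, and 36 of the 43 genes lay above 0, so the list was shifted up by mostly small changes. Ccna2, cyclin A2, which also acts in G2, rose from 0, 0.801 and 0.903 CPM to 14.1, 17.4 and 7.38 CPM (log2 fold change 4.15 ± 0.70, adjusted p = 0.000484). Mcm6, a subunit of the replicative helicase, went from 2.35, 1.6 and 1.81 CPM to 5.62, 6.07 and 4.74 CPM (log2 fold change 1.54 ± 0.41, adjusted p = 0.0323). E2f2 was called at an adjusted p of 0.0694 and lost its call in each of the 6 fits without 1 library, and Mcm6 was called in 3 of the 6, the list giving 1 call without sham replicate 2, sham replicate 3 or PH replicate 2. None of the list was called with the mix as a covariate. Pcna, the sliding clamp of the replication fork, was at 48.7, 37.2 and 55.1 CPM in sham and 40.8, 56.6 and 44.8 CPM after PH, and the groups overlapped (log2 fold change 0.05 ± 0.22, adjusted p = 0.951). Ccnd1, the G1 cyclin, was at 109, 113 and 103 CPM in sham and 84.4, 95.1 and 66.9 CPM after PH, with every PH library below every sham library but no call (log2 fold change -0.40 ± 0.31, adjusted p = 0.54).

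As a mean of log2(CPM + 4) over each list, the G2/M and mitosis score was 2.83, 2.86 and 2.83 in the sham libraries and 4.14, 4.71 and 4.05 after PH, a difference of 1.46. The replication and G1/S score was 3.39, 3.30 and 3.42 in sham and 3.47, 3.74 and 3.62 after PH, a difference of 0.24. Both scores separated PH from sham in every library, but the second by a small margin. At 52 h the PH minus sham difference in OF was 1.49 for the mitotic score and 1.10 for the replication score. In OF NL the mitotic score lay between 2.58 and 2.71. The NL libraries came from mix 12 alone, so the mix and the condition cannot be told apart there and no test was made.

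**Figure D2:**
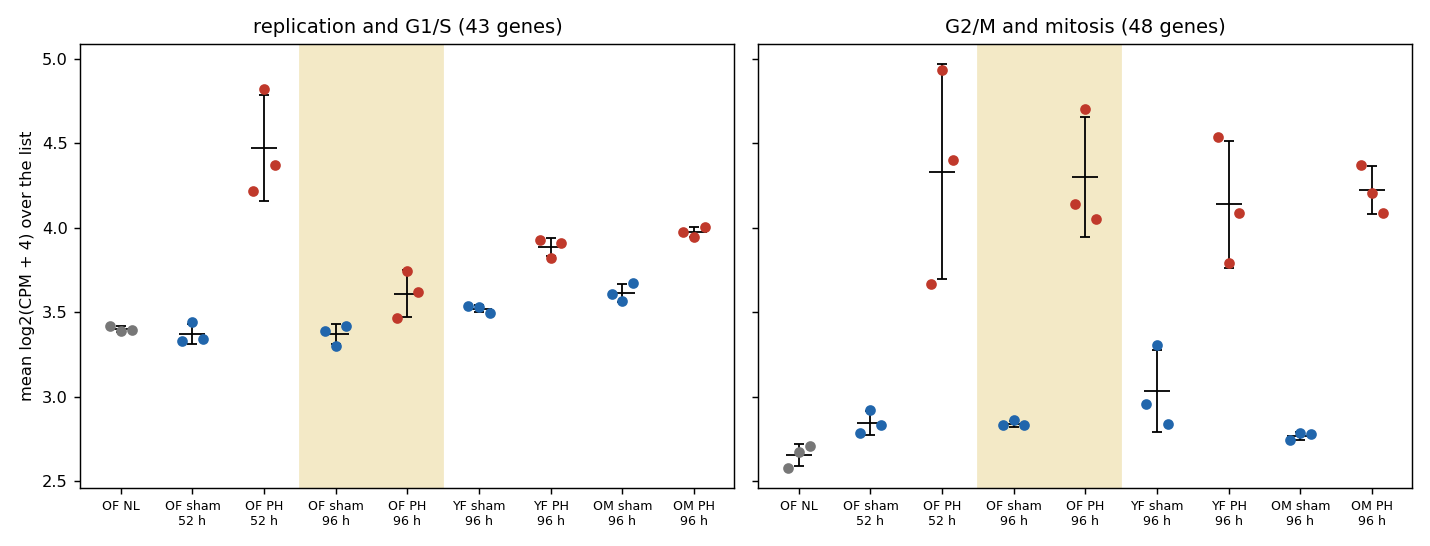
Mean log2(CPM + 4) over 43 replication and G1/S genes (left) and 48 G2/M and mitosis genes (right), 1 point per library, with the group mean and SD (n = 3); grey, NL; blue, sham; red, PH; OF at 96 h is shaded. The mitotic score of OF PH at 96 h (4.05 to 4.71) stands near that of OF PH at 52 h, while its replication score (3.47 to 3.74) is close to sham.

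Inhibitors of the cycle gave a few calls. Of 18 tested genes of the list of cell cycle inhibitors and p53 targets, 3 were called higher (16.7%), Cdkn3, Cdkn1c and Cdkn2c, and the list gave 1 higher call without sham replicate 2 or PH replicate 2. Cdkn3, a phosphatase that acts on cyclin-dependent kinases, rose from 0.785, 1.2 and 1.81 CPM to 9.84, 43.3 and 17.4 CPM (log2 fold change 4.22 ± 0.64, adjusted p = 0.000176), the INK4 inhibitor Cdkn2c from 44.7, 32.8 and 50.1 CPM to 88.6, 97.1 and 73.2 CPM (1.03 ± 0.25, adjusted p = 0.0152). Cdkn1a, which encodes p21, was at 71.4, 229.8 and 50.6 CPM in sham and 157, 219 and 167 CPM after PH, and sham replicate 2 was the highest of all 6 libraries (log2 fold change 0.62 ± 0.60, adjusted p = 0.651). None of the 10 DNA damage response genes that the study lists was called (median log2 fold change -0.11), and neither was any of its 14 tested genes named in the text. The study's text drew many of those named genes from a later time after PH, compared with NL and not with sham. Of the study's cell cycle panel, 6 of 11 genes were called higher (Plk1, Cdc20, Cdk1, Top2a, Birc5 and Mki67), each in all 6 fits without 1 library. Among 9 tested senescence-associated genes, 1 was called higher, Ccl2, a monocyte chemokine, from 8.63, 15.6 and 10.4 CPM to 47.8, 53.8 and 41.6 CPM (log2 fold change 2.00 ± 0.50, adjusted p = 0.0198). No gene was called among 25 growth factor, receptor and early response genes or among 40 ribosome biogenesis genes. Over all tested genes 4.14% were called, so the lack of a call on these lists of 10 to 40 genes says little about them.

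The deepest fall at a high level was that of hepcidin. Hamp (chr7:30942368-30944032, GRCm38) encodes the hormone with which hepatocytes limit iron uptake, and its transcription answers to BMP/SMAD signalling. Hamp was at 3662, 6371 and 4459.7 CPM in sham and at 522, 611 and 484 CPM after PH. The lowest sham library lay at 3662 CPM and the highest PH library at 611 CPM, and the log2 fold change was -3.16 ± 0.24 (adjusted p = 3.66e-09), the smallest p of the comparison. Its adjusted p was 2.98e-06 with the mix as a covariate. The paralog Hamp2 fell from 586, 609 and 1012 CPM to 202, 73.6 and 123 CPM (log2 fold change -2.52 ± 0.33, adjusted p = 3.01e-05).

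Some other genes known to answer to BMP/SMAD signalling were lower too. On a list of 21 such genes and genes of iron handling, 7 were called lower (Hamp, Id1, Hamp2, Smad7, Id3, Smad9 and Atoh8) and 1 higher (Tfrc). These were 33.3% and 4.76%, against 1.59% and 2.54% of all tested genes, and the median log2 fold change was -0.40. The list was drawn up after the fall of Hamp was seen and holds Hamp and Hamp2, so its count is no separate check. Id1, an inhibitor of helix-loop-helix factors, fell from 20.4, 39.6 and 22.6 CPM to 0, 5.26 and 4.22 CPM (log2 fold change -2.79 ± 0.50, adjusted p = 0.000977). Atoh8, a transcription factor, fell from 40, 36.8 and 33 CPM to 9.84, 17 and 9.48 CPM (log2 fold change -1.50 ± 0.22, adjusted p = 8.8e-05). The groups were apart in both, and both calls held in all 6 fits without 1 library. Id3 went from 54.9, 97.7 and 67.3 CPM to 14.1, 23.5 and 18.4 CPM (-1.91 ± 0.51, adjusted p = 0.0285) and the feedback inhibitor Smad7 from 14.9, 11.6 and 14.9 CPM to 7.03, 1.62 and 3.16 CPM (-2.13 ± 0.61, adjusted p = 0.0408), and these calls were lost in 2 and 4 of the 6 fits. Without PH replicate 3 the list held 4 lower calls and no higher one. Tfrc, the transferrin receptor that takes up iron, rose from 14.9, 22 and 23.5 CPM to 50.6, 25.5 and 66.9 CPM (log2 fold change 1.18 ± 0.28, adjusted p = 0.0136), and was not called with the mix as a covariate (adjusted p = 0.667). Bmp2, a ligand made by liver endothelial cells, was at 66.7, 66.9 and 75.4 CPM in sham and 26.7, 48.1 and 26.3 CPM after PH, with an adjusted p of 0.0402 but a log2 fold change of -0.99 ± 0.28, just short of 2-fold. The endothelial marker list, 15 genes of which none was called, summed to 666 to 774 CPM in sham and 520 to 587 CPM after PH. Its part in the value of Bmp2 was not tested, and in bulk RNA fewer cells of a type and less RNA per cell cannot be told apart.

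**Figure D3:**
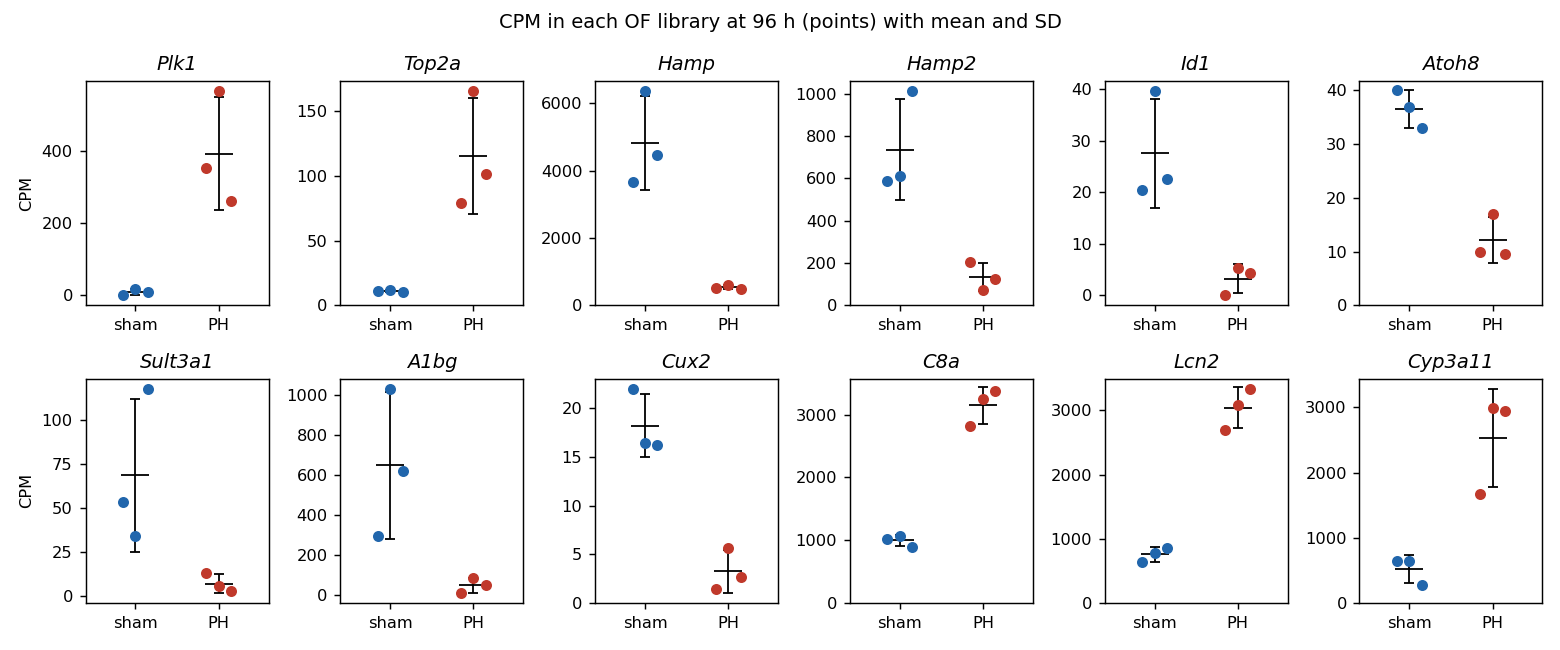
CPM of 12 genes in each OF library at 96 h (points; blue, sham replicates 1 to 3; red, PH replicates 1 to 3), with the mean and SD of each group; every y axis is linear and has its own range. In each panel the groups do not overlap: Plk1, Top2a, C8a, Lcn2 and Cyp3a11 are higher after PH, and Hamp, Hamp2, Id1, Atoh8, Sult3a1, A1bg and Cux2 are lower.

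Female-biased transcripts were lower as well. Sex differences in liver expression are set by the pattern of growth hormone release, and Cux2 and Bcl6 are regulators on the female and male side. Of 29 tested female-biased genes, 12 were called lower and none higher, with a median log2 fold change of -0.97. Of 29 tested male-biased genes, 4 were called higher (Susd4, C8a, Cyp2d9 and C8b) and 2 lower (Serpina12 and Cyp7b1), with a median of -0.50. It was 0.00 with 3 genes that lack counts in a group set at their bound, where a bound below 1-fold was taken as no change. Of the 29, 16 lay below 0 and 12 above. Every PH library lay below every sham library for 10 and above for 5, against 14.0% and 14.2% of all tested genes. A1bg (chr15:60896859-60923012, GRCm38), a secreted plasma protein gene, fell from 295, 1029.8 and 619 CPM to 11.2, 85.8 and 49.5 CPM (log2 fold change -3.60 ± 0.73, adjusted p = 0.00411). Sult3a1, a sulfotransferase, fell from 53.4, 34 and 117 CPM to 12.7, 5.26 and 2.63 CPM (log2 fold change -3.63 ± 0.49, adjusted p = 5.72e-05). Cux2, the female-side repressor, fell from 22, 16.4 and 16.3 CPM to 1.41, 5.66 and 2.63 CPM (log2 fold change -2.20 ± 0.48, adjusted p = 0.00799). In all 3 genes the highest PH library stayed below the lowest sham library.

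The female-biased cytochromes P450 Cyp2c69 and Cyp2a4 fell as well, from 2129, 1038 and 1806 CPM to 666, 365 and 290.3 CPM (log2 fold change -1.93 ± 0.38, adjusted p = 0.00246) and from 73.8, 56.1 and 73.6 CPM to 8.44, 19.4 and 17.4 CPM (-2.03 ± 0.47, adjusted p = 0.0106). Other called genes of the list were Hamp2, Cyp3a16, Sult2a2, Cyp3a41a, Cyp3a41b and Abcd2. Leaving out each library gave 7 (without sham replicate 1 or PH replicate 3) to 13 lower calls on the list, and 6 genes were called in all 6 such fits. Adding the mix as a covariate left 6 lower calls. The same list had 9 of 29 genes called lower in OF at 52 h (median -0.85) and 10 of 29 in young females at 96 h (median -0.88), and the difference of the PH effect was called for 1 gene against each. Cyp2d9, a male-biased P450, rose from 35.3, 37.2 and 24.4 CPM to 64.7, 85.4 and 103 CPM (log2 fold change 1.42 ± 0.28, adjusted p = 0.0023), while Mup7, a male-biased major urinary protein gene, was at 5743, 4328 and 6082 CPM in sham and 4029.7, 2989 and 4316 CPM after PH (log2 fold change -0.51 ± 0.24, adjusted p = 0.249). Serpina12, the adipokine vaspin, fell from 33.7, 59.7 and 32.1 CPM to 8.44, 6.07 and 11.6 CPM (-2.30 ± 0.39, adjusted p = 0.000555). Of 14 tested genes of the growth hormone axis, Igfbp2 was called higher and Cux2 lower. Ghr, the growth hormone receptor, was at 403, 271 and 396 CPM in sham and 281, 195 and 262 CPM after PH (log2 fold change -0.54 ± 0.19, adjusted p = 0.107).

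**Figure D4:**
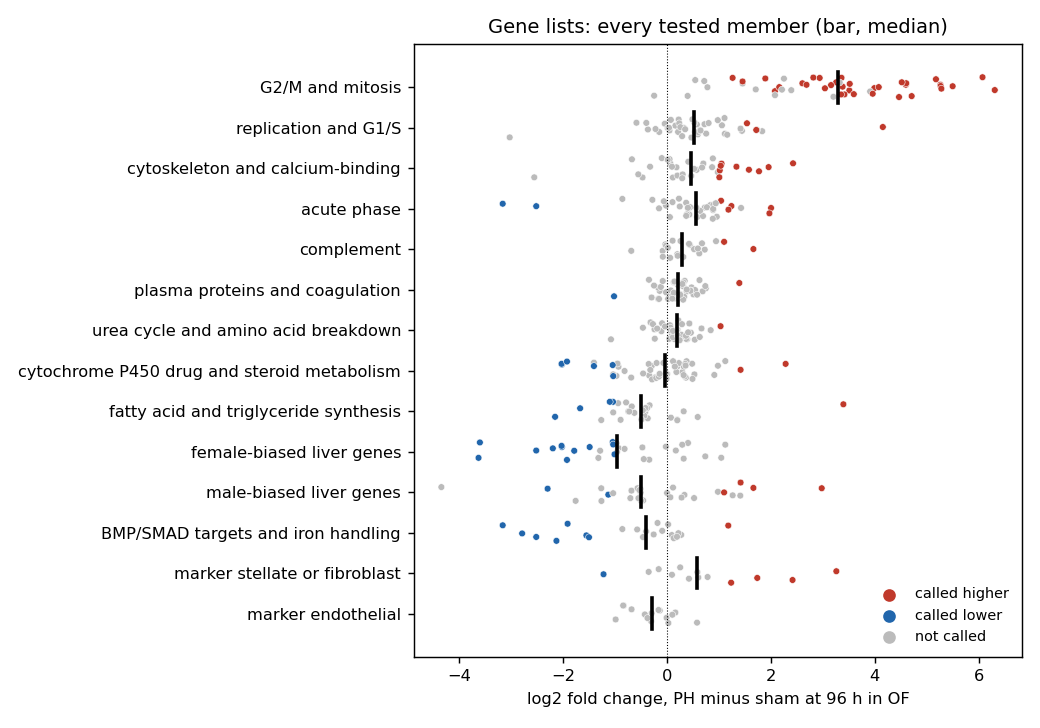
Log2 fold change of PH against sham at 96 h in OF for every tested member of 14 gene lists (1 point per gene; red, called higher; blue, called lower; grey, not called; black bar, median; the vertical spread within a list only separates points). The median of the G2/M and mitosis list is 3.29 and that of the female-biased list is -0.97, while the other lists centre between -0.50 and 0.58.

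Secreted proteins divided. On the acute phase list 5 of 37 genes were called higher (Lcn2, Saa2, Serpina3n, Apcs and Saa4) and the hepcidins Hamp and Hamp2 lower, with a median log2 fold change of 0.56. Lcn2, which binds bacterial siderophores, rose from 631, 783 and 862 CPM to 2701, 3084 and 3331 CPM (log2 fold change 2.00 ± 0.47, adjusted p = 0.012). Serpina3n, a protease inhibitor, rose from 352, 417 and 368 CPM to 904, 954 and 828 CPM (1.24 ± 0.27, adjusted p = 0.0064). For both genes every PH library exceeded every sham library. The list held 3 higher calls without sham replicate 1, PH replicate 1 or PH replicate 3. None of the 5 was called with the mix as a covariate (for Lcn2, adjusted p = 0.332). Of 22 complement genes, C8a and C8b, 2 chains of the membrane attack complex, were called higher. C8a (chr4:104815679-104876398, GRCm38) rose from 1026, 1072 and 891 CPM to 2819, 3253 and 3380.1 CPM, a log2 fold change of 1.66 ± 0.22 (adjusted p = 3.49e-05), and C8b from 352, 468 and 333 CPM to 772, 781 and 918 CPM (1.10 ± 0.18, adjusted p = 0.000455). Among 47 plasma protein and coagulation genes, Apoa4, an apolipoprotein, rose from 224, 153 and 146 CPM to 401, 565 and 394 CPM (log2 fold change 1.39 ± 0.25, adjusted p = 0.00108), and Apoa5, which promotes triglyceride clearance, fell from 550.1, 610.2 and 479 CPM to 197, 235 and 370.4 CPM (-1.02 ± 0.21, adjusted p = 0.00408), a call that held in 3 of the 6 fits without 1 library. Albumin (Alb) was at 6243, 5529 and 5778 CPM in sham and 9074, 6696 and 9728 CPM after PH and was not called (log2 fold change 0.54 ± 0.22, adjusted p = 0.171).

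Of 51 P450 genes 2 were called higher (3.92%) and 6 lower (11.8%), with a median log2 fold change of -0.04. Of 44 conjugation and NRF2 genes 3 were called in each direction (6.82% each, median 0.30). Over all tested genes the shares were 2.54% higher and 1.59% lower. On the P450 list 3 lower calls were left without sham replicate 1, sham replicate 3 or PH replicate 2, and 1 with the mix as a covariate. On the conjugation list there were 6 higher calls without sham replicate 2 and 1 lower call without sham replicate 3 or PH replicate 1. On that list 19 of the 44 genes were higher in every PH library than in every sham library, against 14.2% of all tested genes. Cyp3a11, the main drug-metabolising P450 of this family, rose from 645, 648 and 275 CPM to 1665, 2989 and 2952 CPM (log2 fold change 2.28 ± 0.36, adjusted p = 0.000238). The glutathione transferase Gsta1 rose from 0.785, 1.6 and 1.35 CPM to 18.3, 6.47 and 11.6 CPM (2.95 ± 0.50, adjusted p = 0.000476), and Gstp1 from 76.1, 111 and 92.1 CPM to 252, 206 and 224 CPM (1.27 ± 0.16, adjusted p = 2.24e-05), although Gstp1 shares 3′ sequence with the near-identical Gstp2. On the list of fatty acid and triglyceride synthesis (27 genes, median -0.49), 4 were called lower (Lpin1, Fads2, Acacb and Me1) and 1 higher (Fabp4). Of the 27, 13 were lower in every PH library than in every sham library, against 14.0% of all tested genes. Lower calls fell to 1 without PH replicate 3 and to 1 with the mix as a covariate. Lpin1, a phosphatidate phosphatase on the way to triglyceride, fell from 172, 165 and 131 CPM to 26.7, 46.9 and 27.4 CPM (log2 fold change -2.15 ± 0.37, adjusted p = 0.000555). Fabp4, a fatty acid carrier of fat and endothelial cells, rose from 1.57, 2 and 0 CPM to 12.7, 10.5 and 15.8 CPM (3.39 ± 0.54, adjusted p = 0.000257). Fads2 rested on 1 sham library (replicate 1, 133 CPM), and its groups overlapped. In each of the other genes named here the groups were apart.

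Pkm, the pyruvate kinase of proliferating cells, rose from 29, 31.6 and 48.3 CPM to 68.9, 83.7 and 110.1 CPM (log2 fold change 1.27 ± 0.30, adjusted p = 0.0124) and was the 1 higher call among 39 genes of glucose and glycogen metabolism. The list held 2 lower calls, among them Ppp1r3b, which targets a phosphatase to glycogen. Ppara, the receptor that drives fatty acid oxidation, was the 1 call among 31 genes of that list and fell from 50.2, 36 and 42.4 CPM to 14.1, 23.5 and 20.5 CPM (log2 fold change -1.05 ± 0.29, adjusted p = 0.0368). Its call was lost without sham replicate 1, PH replicate 1 or PH replicate 3, and with the mix as a covariate (adjusted p = 0.596). Bhmt, which remethylates homocysteine, was the 1 call among 42 urea cycle and amino acid genes and rose from 984, 891 and 1082 CPM to 2129, 1905 and 2005 CPM (1.03 ± 0.19, adjusted p = 0.00112), and was not called without sham replicate 2 or PH replicate 1. Among bile acid genes (24), Slc51b was called higher and Cyp7b1 lower, and among 24 cholesterol synthesis and uptake genes none was called. Single calls were made on the lists of the unfolded protein and amino acid response (Psph, higher, of 31), the circadian clock (Hlf, lower, of 20), hepatocyte transcription factors (Cux2, lower, of 26), pericentral genes (Slc1a4, higher, of 22) and interferon-stimulated genes (Usp18, higher, of 34). Over all tested genes 2.54% were called higher and 1.59% lower, so a single call on lists of this size says little about the list. Usp18 was not called in any of the 6 fits without 1 library, and Hlf, Slc51b and Cyp7b1 were called in 3 of them. Of 23 periportal genes, Cdh1, Apoa4 and Aldh1b1 were called higher. Slc1a4, a neutral amino acid transporter, rose from 8.63, 4.8 and 6.32 CPM to 39.4, 55 and 27.4 CPM (log2 fold change 2.70 ± 0.38, adjusted p = 8.39e-05). Isyna1, the myo-inositol synthase on no list, rose from 38.5, 43.2 and 38.8 CPM to 475, 566 and 295 CPM (3.46 ± 0.44, adjusted p = 2.24e-05), and was singled out after its values were seen.

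A share of the cytoskeletal genes rose. Of 33 tested genes of the cytoskeleton and calcium-binding list, 9 were called higher and none lower, with a median log2 fold change of 0.46. Tubb6, a beta-tubulin, rose from 8.63, 8.41 and 8.58 CPM to 42.2, 61.1 and 32.7 CPM (log2 fold change 2.42 ± 0.31, adjusted p = 2.33e-05), and Tagln2, an actin-binding protein, from 44.7, 49.2 and 47 CPM to 141, 161 and 178 CPM (1.77 ± 0.22, adjusted p = 2.24e-05). The hepatocyte keratin Krt8 rose from 173, 199 and 212 CPM to 323, 483 and 369.9 CPM (1.01 ± 0.21, adjusted p = 0.00408). The remaining calls were S100a11, Lgals1, Vim, Anxa2, Tuba1a and Anxa5, and leaving out each library gave 5 (without sham replicate 1 or PH replicate 2) to 9 calls on the list. Vim and Lgals1 are also made by non-parenchymal cells. Of 12 tested fetal and ductal genes, 4 were called higher (Ly6d, H19, Cd24a and Prom1), or 2 without sham replicate 1 or sham replicate 2. Ly6d, a surface antigen, rose from 0, 2.8 and 1.35 CPM to 36.6, 54.2 and 55.9 CPM (log2 fold change 4.88 ± 0.55, adjusted p = 7.01e-06). H19, an imprinted fetal RNA, was at 3.14, 0.801 and 0.903 CPM in sham and 7.03, 10.9 and 71.7 CPM after PH, and PH replicate 3 stood apart (4.49 ± 0.73, adjusted p = 0.000351).

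Some markers of other cell types were called, on the stellate cell, erythroid and macrophage lists. Of 13 tested stellate cell and fibroblast markers, 4 were called higher (Col1a1, Col1a2, Col3a1 and Sparc) and 1 lower (Ecm1), with 2 higher calls without PH replicate 3, and their sum was 363 to 434 CPM in sham and 461 to 796 CPM after PH. Col1a1, a fibrillar collagen chain, rose from 0, 6.01 and 4.06 CPM to 25.3, 23.5 and 61.6 CPM (log2 fold change 3.26 ± 0.48, adjusted p = 0.00013), and the collagen-processing Pcolce from 3.14, 4 and 6.32 CPM to 43.6, 38.8 and 41.6 CPM (3.12 ± 0.39, adjusted p = 2.24e-05). The 8 markers of the list that were not called included Dcn, Lrat, Reln, Des and Acta2. Dcn was at 105, 123 and 126 CPM in sham and 78.7, 104 and 92.2 CPM after PH. Acta2 was near the floor, at 0, 2.4 and 0.452 CPM in sham and 0, 0.809 and 2.63 CPM after PH. All 5 tested erythroid markers were called higher, but 2 were called without PH replicate 2 (the median log2 fold change going from 3.26 to 2.07) and none with the mix as a covariate. Their sum was 11.2 to 24.3 CPM in sham and 36.9 to 309 CPM after PH, and the 2 largest values were those of PH replicates 1 and 2. Hbb-bt, an adult beta-globin, was at 0, 1.6 and 0.452 CPM in sham and 30.9, 119.8 and 9.48 CPM after PH (log2 fold change 5.98 ± 0.96, adjusted p = 0.000316). Of 17 Kupffer cell and macrophage markers, Marco, a scavenger receptor, was called higher, from 8.63, 5.21 and 22.1 CPM to 40.8, 41.7 and 50.1 CPM (1.86 ± 0.35, adjusted p = 0.00172), and the antigen-presenting genes H2-Aa, Cd74 and H2-Ab1 lower. These 3 lower calls were all lost without sham replicate 3, PH replicate 1 or PH replicate 3 and with the mix as a covariate, and the list gave 1 lower call without sham replicate 2 or PH replicate 2. H2-Aa went from 23.5, 58.5 and 91.7 CPM to 11.2, 22.7 and 15.3 CPM (-1.75 ± 0.49, adjusted p = 0.0376), while the sum of the list (711 to 1374 CPM in sham, 1086 to 1246 CPM after PH) overlapped. None of 4 cholangiocyte or 2 B cell markers was called, and no T or NK cell or neutrophil marker was among the genes tested. The part of these cells in the collagen, cytoskeletal and Fabp4 values was not tested.

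Against 52 h in OF, for which the sham libraries are labelled 2 days, the PH effect at 96 h was smaller on replication genes, with few differences on mitotic genes. The difference of the PH effect (96 h minus 52 h) was called for 535 genes (4.84% of those tested), 290 positive and 245 negative. On the replication and G1/S list, 35 of 43 genes were called higher at 52 h and 3 at 96 h, and the difference was called negative for 9 and positive for none. Without 1 library the number was 3 to 10, the fewest without sham replicate 1 at 96 h. On the G2/M and mitosis list 34 of 48 were called higher at each time, and the difference was called for 2. For Mcm2, a helicase subunit, the log2 fold change was 4.00 ± 0.56 at 52 h and 0.57 ± 0.53 at 96 h, a difference of -3.43 ± 0.84 (adjusted p = 0.0202). For Pcna the 2 values were 1.15 and 0.05, a difference of -1.11 ± 0.30 (adjusted p = 0.0339), and for Ccnd1 1.20 and -0.40 (-1.60 ± 0.44, adjusted p = 0.0352). Cdkn1a moved the same way, from 3.41 at 52 h to 0.62 at 96 h (-2.79 ± 0.92, adjusted p = 0.0856).

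The hepatocyte's own products differed in the other sense. The difference was positive for 12 of 42 urea cycle and amino acid genes, 13 of 51 P450 genes, 9 of 44 conjugation genes, 8 of 47 plasma protein genes, 11 of 37 acute phase genes and 7 of 22 complement genes, and negative for 0, 1, 0, 0, 1 and 0. Nat8f1, Slc27a5, Inmt and Pxylp1 were among the positive differences with the smallest adjusted p, and Cldnd1, Hamp and Anp32b among the negative ones. Slc27a5, a bile acid CoA ligase, had a log2 fold change of -1.48 ± 0.16 at 52 h and 0.23 ± 0.16 at 96 h, a difference of 1.72 ± 0.23 (adjusted p = 0.000201). For Hamp the values were -1.09 ± 0.22 and -3.16 ± 0.24, a difference of -2.07 ± 0.32 (adjusted p = 0.000572). The summed hepatocyte markers were 39975 to 54238 CPM in sham and 28242 to 41074 CPM after PH at 52 h, and their part in these differences was not tested. Only 89 differences were called with the mix as a covariate.

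Compared with young females (YF, 11 to 14 weeks), few differences were called. The difference of the PH effect at 96 h (OF minus YF) was called for 41 genes (0.371%), 10 positive and 31 negative. No gene of the G2/M and mitosis or replication lists was among them. In YF 24 of 48 mitotic genes were called higher (median 2.22), beside 34 in OF (median 3.29). With 3 libraries per group, the lack of a called difference does not show that the effects were equal. Hamp gave the smallest p: its log2 fold change was -0.48 ± 0.22 in YF, from a mean of 2666 CPM in sham to 1918 CPM after PH, and -3.16 ± 0.24 in OF, a difference of -2.69 ± 0.32 (adjusted p = 5.94e-05). On the BMP/SMAD and iron list the difference was negative for 4 of 21 genes, Hamp, Hamp2, Id2 and Id3, and the number was 2 to 5 without 1 library, 2 without PH replicate 3 of OF. Igfbp2, an insulin-like growth factor binding protein, rose from 417, 346 and 385 CPM to 688, 771 and 908 CPM in OF (log2 fold change 1.05 ± 0.22, adjusted p = 0.00431) and had -0.61 ± 0.22 in YF, a difference of 1.66 ± 0.31 (adjusted p = 0.0197). It lost its call without sham replicate 1 of YF. The count of called differences ran from 7, without that library, to 82, without sham replicate 2 of YF. With the mix as a covariate 1 difference was called.

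Compared with old males (OM, 60 weeks), the lists differed mainly in interferon-stimulated genes. The difference (OF minus OM) was called for 265 genes (2.40%), 95 positive and 170 negative. In OM 32 of 48 mitotic genes were called higher (median 3.59), and no difference was called on that list. Of 34 interferon-stimulated genes, 26 were called higher after PH in OM and 1 in OF, and the difference was called negative for 19 and positive for none, or for 18 to 20 genes without 1 library. Rsad2, an antiviral enzyme, was at 16.5, 25.2 and 16.3 CPM in OF sham and 9.84, 19.8 and 14.2 CPM in OF after PH. Its log2 fold change was -0.32 ± 0.25 in OF and 3.20 ± 0.25 in OM, a difference of -3.52 ± 0.35 (adjusted p = 1.11e-06). Hamp again differed, with -0.93 ± 0.23 in OM and a difference of -2.23 ± 0.32 (adjusted p = 0.000154). For Igfbp2 the PH effect was -1.27 ± 0.23 in OM, opposite to OF, and the difference was 2.32 ± 0.32 (adjusted p = 7.86e-05). Of 29 female-biased genes, 12 were called lower in OF and 10 in YF, while in OM none was called lower and 1 higher (median log2 fold change 0). The difference between OF and OM was called negative for 3. A gene with few counts in males could not be called lower there, and the levels of this list in OM were not examined. A fit with the mix as a covariate called 18 differences.

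The PH effect on C8a and C8b differed from all 3 other comparisons, and their sham levels were the lowest of the 4 sham groups. The C8a difference was 1.95 ± 0.31 against 52 h (adjusted p = 0.000734), 1.26 ± 0.31 against YF (adjusted p = 0.0941) and 1.60 ± 0.31 against OM (adjusted p = 0.00475). Mean C8a in sham was 996 CPM in OF at 96 h, beside 2426 CPM in OF at 52 h, 1776 CPM in YF and 3159 CPM in OM, while after PH it was 3151, 1991, 2345 and 3310.3 CPM. NL libraries of OF were lower still (mean 496 CPM). Mixes differ between the 4 comparisons, so age, sex or time and the mix cannot be told apart by levels alone.

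**Figure D5:**
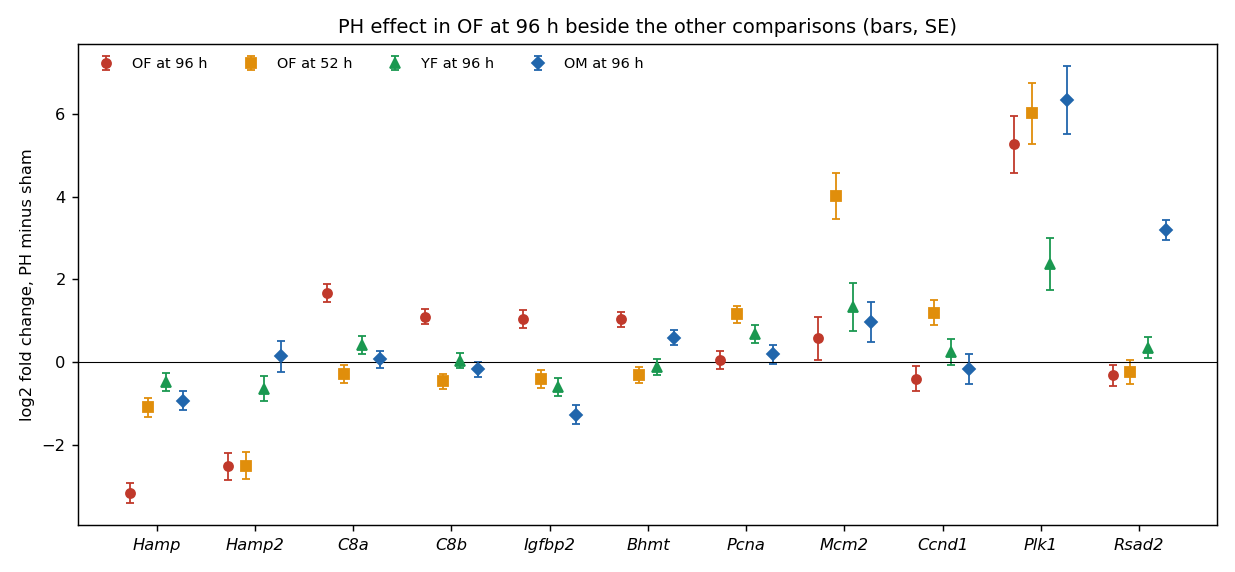
Log2 fold change of PH against sham (y axis, bars show SE) for 11 genes in OF at 96 h (red circles), OF at 52 h (orange squares), YF at 96 h (green triangles) and OM at 96 h (blue diamonds), 3 libraries per group. In OF at 96 h Hamp lies lowest (-3.16), C8a, C8b and Igfbp2 lie above the other comparisons, Pcna, Mcm2 and Ccnd1 lie below their 52 h values, and Rsad2 is at -0.32 beside 3.20 in OM.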

How the data were processed

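Hepatocyte RNA was sequenced by CEL-seq2 in the 133 libraries of the series. The authors deposited 1 table of 11049 genes with expected counts: UMI counts corrected for UMI saturation (4096 UMIs), filtered for low expression, and adjusted with ComBat-Seq across batches. The batch variable and the filter threshold are not given in the sources used here. The submitters' processing notes name bcl2fastq 2.20 and the build GRCh38, whereas the paper's methods name the mouse build GRCm38. A batch adjustment made before deposit can move levels between mixes, and 9 genes had been removed by the authors. Depth ran from 294889 to 3487086 counts over the 27 libraries fitted. Intervals and floors cover counting error only.

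Groups came from the titles, and X-marked libraries were left out. The expected counts were rounded and fitted with edgeR 4.0.16 (R 4.3.3, limma 3.58.1; TMM, quasi-likelihood, 1 coefficient for each of 9 groups of 3), keeping genes with at least 0.5 CPM in 1 library. Differences of PH effects were contrasts of the same fit. Each SE was worked back from the test, as the absolute log2 value divided by the square root of the F statistic. It is thus no separate estimate of precision, least of all where a group had few counts. Floors were 3 counts per library. Simulated data for PH against sham at 96 h in OF (11043 genes, 200 changed) gave calls for 99% of genes changed 4-fold and 84% of those changed 2.5-fold, with 7 unchanged genes called. The changed genes were drawn only from those above a minimum mean count, and no mix effect or other group difference was simulated. These figures therefore do not cover genes with few counts or differences between mixes. Alternatives were DESeq2 1.42.0, RLE scaling, another filter, a stricter threshold, only the groups compared, the 3X library added, only mix 15, the mix as a covariate, a replicate block and leaving out each library.

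Named genes were the 12 higher and 12 lower called genes with the largest changes at a mean of 10 counts or more and no overlap of groups, up to 5 called genes per list and direction, the study's own genes, and the 4 positive and 4 negative called differences with the smallest adjusted p. The members and lists were chosen with earlier results of these data known, and the BMP/SMAD and iron list after the values were seen. Aurka, Ccnd1, Mcm2, Pcolce, Ghr, Mup7, Dcn, Isyna1, Krt8 and Atoh8 fall outside this rule and were chosen after their values were seen. A few genes that the rule names are not reported here.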

Additional observations from a re-analysis of the deposited data

Results flagged for a closer look

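For 22 differences, a test of the difference of the PH effect (edgeR, Benjamini-Hochberg) set OF at 96 h apart from another comparison, and they are given as log2 values with no explanation. Against OF at 52 h they were 2.09 for Nat8f1, 1.72 for Slc27a5, 2.78 for Inmt, 1.76 for Pxylp1, -2.38 for Cldnd1, -2.07 for Hamp and -2.17 for Anp32b. Against YF they were 1.66 for Igfbp2, 1.64 for Iscu, 1.89 for Tcta, 2.63 for Gm16072, -2.69 for Hamp, -1.58 for Erbin, -3.43 for Cxcl14 and -3.58 for Gm14138. Against OM they were 2.32 for Igfbp2, 1.33 for Nat8f1, 1.60 for Gm16060, 2.10 for Alas2, -3.52 for Rsad2, -4.19 for Gbp3 and -4.33 for Ifit3b.

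All 14 differences against OF at 52 h and OM were called in each of the 12 fits without 1 library. Against YF, the calls for Igfbp2, Iscu and Cxcl14 were lost without sham replicate 1 of YF (adjusted p = 0.106, 0.173 and 0.106), that for Tcta without PH replicate 1 of YF (adjusted p = 0.116), and that for Gm16072 in 3 of the 12 fits.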

How the results depend on the processing

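Of the 61 called genes with a printed fold change, none changed sign under the 17 alternatives. With the mix as a covariate, 55 genes were called higher and 12 lower, and the differences called fell to 89 against 52 h, 1 against YF and 18 against OM. With mix 15 alone 97 were higher and 24 lower, or 133 and 44 with the 3X library. DESeq2 called 109 lower, only the groups compared gave 83 differences against YF, and an adjusted p under 0.05 with no fold minimum gave 13 against YF and 165 against OM. Without 1 library, lower calls ranged from 96 to 169 and the differences from 301 to 607 against 52 h, from 7 to 82 against YF and from 146 to 251 against OM. For genes not called, Cdkn1a went to -0.25 within mix 15, Mcm2 ranged from -0.00325 to 0.84 and Pcna from -0.12 to 0.19 without 1 library. The mitotic score difference was 2.16 with log2(CPM + 1). The cause of these changes was not tested. With a replicate block 265 were called higher and 159 lower. Same-numbered libraries correlated at -0.046, -0.15 and 0.042 in their deviations, and differently numbered ones at -0.072 to 0.12. With so few libraries per group this check cannot show whether same-numbered libraries were paired. Precision is limited by low counts in 1 of the groups: 20 called genes had a group with no count and 25 had 1 to 3.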
